A study of Mus musculus with 6 samples.

Results

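Transcripts of the kinesin superfamily were measured in V720, a cell line from mouse breast cancer whose tissue is labelled as mammary epithelium. Members were all probe sets whose single annotated gene symbol begins with Kif and a digit, or is Kifc1 to Kifc3 or Klc1 to Klc4. This gave 109 of 45037 probe sets, which named 43 of 18193 genes. As classed here, 12 of these genes encode mitotic motors, 17 transport motors, 3 light chains of the transport motor kinesin-1, and 11 other kinesins. Kif2a, which acts at spindle poles and in neurons, and its relative Kif2b were placed among the other kinesins. Counts and medians of the mitotic class therefore leave them out. A further probe set, annotated to Kif27 and a second gene, was left out, and Klc2 was not analysed here.

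Both groups were the same line, grown in serum-containing medium for 24 h with either vehicle or 1 µM PD0332991, an inhibitor of the kinases CDK4 and CDK6 also known as palbociclib. Each group had 3 samples, each on its own Affymetrix array, 6 arrays in all. The design text calls the samples biological triplicates and does not say whether they were cultured on separate days, so p-values measure the spread between these samples. The comparison addresses how CDK4 and CDK6 inhibition for 24 h alters transcript levels. What driver or genotype the tumour line carries is not given in the labels.

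Kinesins are motor proteins that hydrolyse ATP to walk along microtubules or to take their ends apart. Mitotic members separate spindle poles, move and align chromosomes, set microtubule length and build the cytokinetic midzone, and in many cell types their transcripts peak in the second part of the cell cycle. Transport members carry vesicles, mitochondria and ciliary cargo in interphase cells. Many mitotic genes are repressed in resting cells by the DREAM complex, which holds retinoblastoma-related proteins, and which binds a short promoter element, the cell cycle genes homology region (CHR), often next to CCAAT boxes bound by NF-Y.

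Promoter windows of 300 bases, from 250 bases before to 50 bases after the annotated start, were taken from RefSeq on build GRCm38.p6. They covered 11 of the 12 mitotic genes, all but Kif20a, and 14 of the 20 transport motor and light chain genes, in 16 windows because Kif1a and Kif1b have 2 each. The windows below belong to the 4 mitotic kinesins with the largest falls among those with an entry, and to Kif16b, a transport kinesin that was not called, for contrast. Each shows 120 bases before and 25 bases from the start, 5′ to 3′ on the gene's strand, with TTTGAA (the CHR) and CCAAT in capitals on either strand, so that TTCAAA and ATTGG are their reverse complements. The stretches lie at chr19:37376262-37376406 on the plus strand for Kif11, chr4:117178748-117178892 on the minus strand for Kif2c and chrX:100625945-100626089 on the plus strand for Kif4. Those of Kif20b and Kif16b lie at chr19:34922238-34922382 on the plus strand and chr2:142901440-142901584 on the minus strand.
Kif11: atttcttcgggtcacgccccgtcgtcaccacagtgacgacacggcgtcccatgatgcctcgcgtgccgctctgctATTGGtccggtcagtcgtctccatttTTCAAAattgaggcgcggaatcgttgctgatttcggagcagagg
Kif2c: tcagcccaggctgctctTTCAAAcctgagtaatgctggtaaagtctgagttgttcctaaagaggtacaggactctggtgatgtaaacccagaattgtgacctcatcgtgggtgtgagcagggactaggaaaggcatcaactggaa
Kif4: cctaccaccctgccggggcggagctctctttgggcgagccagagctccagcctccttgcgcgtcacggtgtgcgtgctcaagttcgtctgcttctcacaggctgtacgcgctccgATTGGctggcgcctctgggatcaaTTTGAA
Kif20b: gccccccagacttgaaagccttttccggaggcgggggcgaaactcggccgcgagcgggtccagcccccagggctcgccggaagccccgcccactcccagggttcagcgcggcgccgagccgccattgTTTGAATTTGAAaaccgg
Kif16b: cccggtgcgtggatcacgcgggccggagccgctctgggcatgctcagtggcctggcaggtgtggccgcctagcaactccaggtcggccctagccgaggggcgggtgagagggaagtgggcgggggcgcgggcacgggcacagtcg

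The 4 mitotic stretches each hold TTTGAA on one strand, and Kif20b holds it in tandem, while the Kif16b stretch holds neither motif. Over whole windows, TTTGAA on either strand was present in 10 of 11 mitotic windows (90.9%), in 1 of 16 windows of transport motors and light chains (6.25%) and in 2 of 12 windows of the other kinesins (16.7%). Among all 32851 windows in the table the share was 17.9%. Kif18a was the mitotic gene without it, and 1 of the 2 Kif1a windows was the transport window with it. In 8 of the 11 mitotic genes, and in none of the 14 transport motor and light chain genes, a match began within 25 bases of the annotated start. Among the other kinesins Kif26b, which was not called, had a match 9 bases before its start. That distance was chosen after the positions were seen, and 2.65% of all windows had such a match.

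CCAAT was present in 7 of 11 mitotic windows, 6 of 16 transport and light chain windows and 37.4% of all windows. Both TTTGAA and CCAAT were present in 7 mitotic windows and no transport or light chain window, against 2 of 12 windows of other kinesins (16.7%; Kif26b and Kif27) and 6.95% of all windows. Of the E2F-type motifs TTCCCGCC, TTTCCCGC and TTTGGCGC, searched on both strands, the last was found in Kif15 and Kif18a, against 0.514% of all windows, and the others in no mitotic window. TTCGAA, a variant of the CHR that reads the same on both strands, was found in Kif24 and in 1.56% of all windows. These matches describe letters in a window and not bound sites. Each motif was counted on its own, so matches of different motifs may share bases, and TTTCCCGC followed by C also holds TTCCCGCC.

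**Figure D1:**
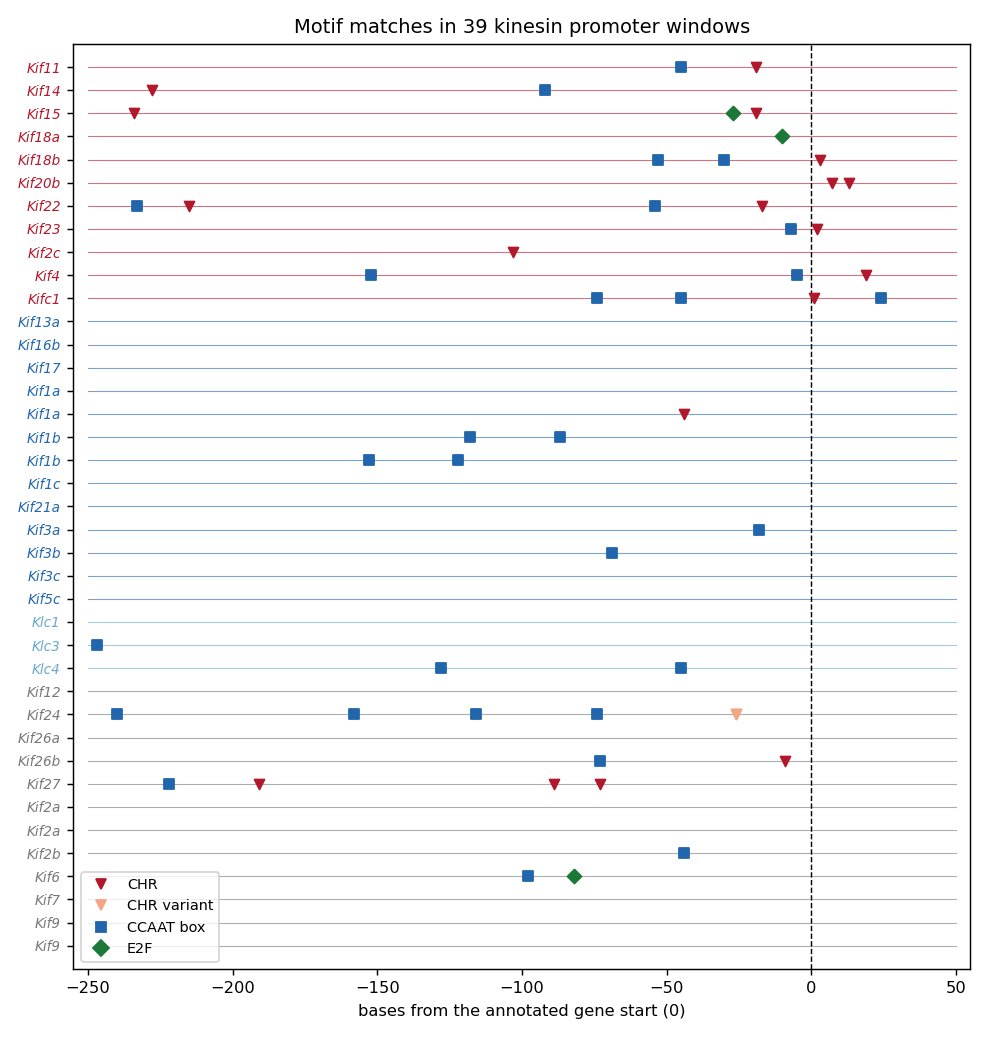
Positions of motif matches in 39 promoter windows of kinesin genes, with the distance in bases from the annotated start on the x axis and 1 window per line, gene names coloured by class (mitotic red, transport motor blue, light chain light blue, other grey). Triangles are CHR matches and paler triangles the CHR variant, squares CCAAT boxes and diamonds E2F-type motifs; 8 of the 11 mitotic windows have a CHR match within 25 bases of the start.

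Most mitotic kinesins fell, and no transport kinesin was called lower. Of 12 mitotic genes 10 fell and none was called higher (0 also at an unadjusted p under 0.05), each of the 10 by 2.41-fold to 3.95-fold, with a median log2 fold change of -1.44 over all 12. Among all 18193 genes 11.2% were called lower, 1.15% were called and at least 2-fold lower, and the median log2 fold change was 0.00. Of the 20 transport motor and light chain genes 5 rose by 1.17-fold to 1.31-fold and none was called lower, against 9.81% of all genes called higher, with a median of 0.05. Calls are adjusted p-values under 0.05 from limma, adjusted over all genes, on log2 of intensity plus 16. Groups that did not overlap and were higher with PD0332991 were found in 6 of the 20 transport motor and light chain genes and in 19.3% of all genes. Groups that did not overlap and were lower were found in 4 of the 20 (Kif13a, Kif13b, Kif21b and Klc1) and in 19.6% of all genes. The probe sets of Kif13a differed. Those that do not stand for the gene had log2 fold changes of 0.18 and 0.10 without overlap and 0.08 and 0.01 with overlap. The other probe sets of Kif13b had -0.02, -0.11 and -0.01, those of Klc1 0.08 and -0.03, and that of Kif21b -0.18. In all of these the groups overlapped. In these bulk samples, fewer cells that express a gene and less RNA per cell cannot be told apart.

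The difference between the classes was also taken within each array. The mean log2 value of the 12 mitotic genes minus that of the 20 transport motor and light chain genes was 0.91, 0.89 and 0.81 on the vehicle arrays and -0.68, -0.47 and -0.52 on the PD0332991 arrays. All vehicle arrays were above all PD0332991 arrays. Probe sets differ in brightness, so only the change of this difference between groups has a meaning, which was -1.43. Because this difference is taken within an array, shifting an array as a whole does not alter it.

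**Figure D2:**
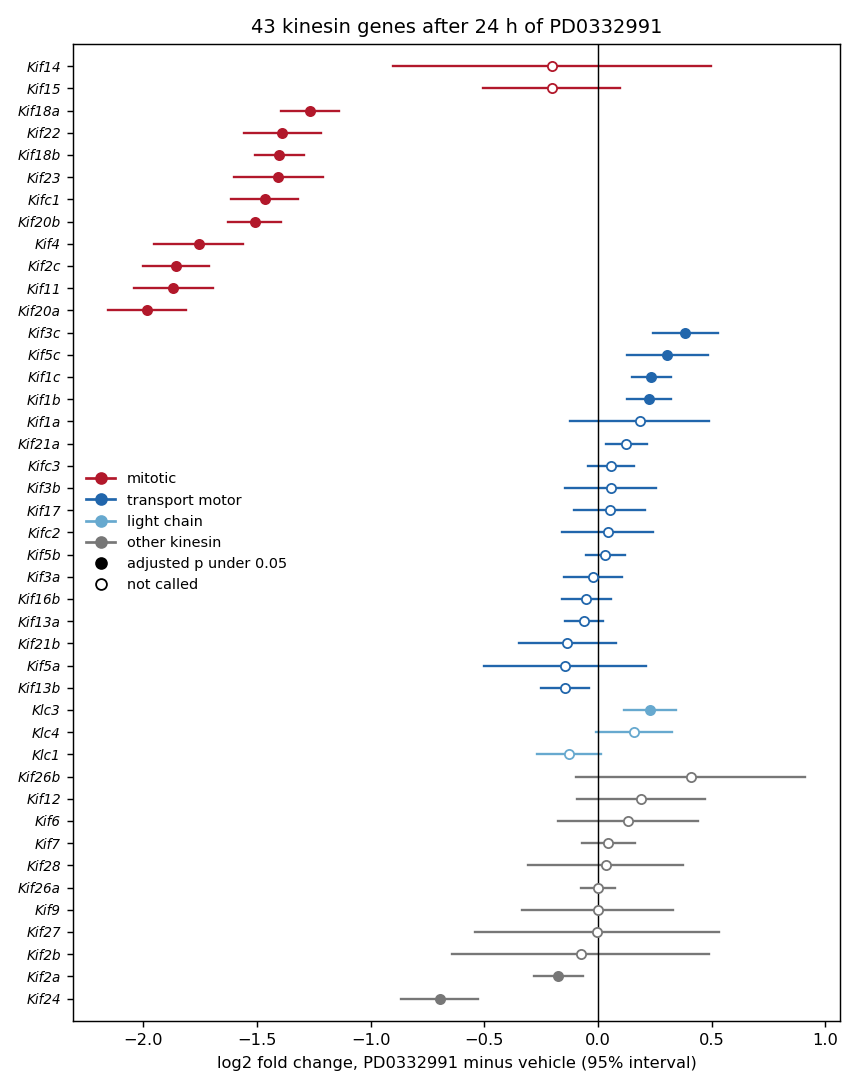
Log2 fold changes of the 43 kinesin genes, PD0332991 minus vehicle, with 95% intervals from the limma fit as lines (n = 3 arrays per group), grouped and coloured by class; filled points have an adjusted p under 0.05. Of the mitotic genes 10 lie between -1.98 and -1.27, and the transport motors and light chains lie between -0.15 and 0.38.

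The motors that build and lengthen the spindle included the following. Kif11, the plus-end motor that pushes spindle poles apart, had intensities of 1502, 1550.0 and 1497 on the vehicle arrays and 364, 416 and 435 on the PD0332991 arrays. The groups were far apart, and the log2 fold change was -1.87 (SE 0.07, adjusted p = 5.56e-05). Kif15, which can take over from Kif11 in keeping the poles apart, had 113, 98.4 and 96.6 with vehicle and 71.9, 103 and 87.7 with PD0332991. These values overlapped on its single probe set, and its log2 fold change of -0.20 had a 95% interval of -0.51 to 0.10 (limma adjusted p = 0.316). Kifc1, a minus-end motor that bundles spindle microtubules and clusters centrosomes, went from 623.7 ± 24.2 to 215.6 ± 14.9 (SD, n = 3 each), a 2.76-fold fall. Its 1 probe set is of a type that can match several transcripts, and a probe set annotated to its close relative Kifc5b had a log2 fold change of -0.71.

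Of the mitotic kinesins, Kif2c, Kif18a and Kif18b act on the length of microtubules. Kif2c, which removes tubulin from microtubule ends at centromeres, had 1184, 1153 and 1106 with vehicle and 283, 314 and 321 with PD0332991. It was 3.62-fold lower, without overlap (SE of the log2 fold change 0.06, limma adjusted p = 4.50e-05). Kif18a, which damps chromosome movement at the metaphase plate, had 879, 936 and 833 with vehicle and 350.4, 364 and 356 with PD0332991. At 2.41-fold it was the smallest fall of the 10 called genes. Kif18b, which shortens astral microtubules together with Kif2c, fell 2.64-fold, from 288.6 ± 13.1 to 99.3 ± 2.06 (SD, n = 3 each).

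The chromokinesins Kif4 and Kif22 bind chromosome arms. Kif4, which also limits the length of midzone microtubules, had 794, 847 and 858 with vehicle and 208.5, 252 and 248 with PD0332991, a 3.38-fold fall. Kif22, which pushes chromosome arms towards the equator, had 4714, 4899 and 4613 with vehicle and 1634, 1899 and 1878 with PD0332991. The fall was 2.62-fold on that probe set and 3.21-fold and 3.70-fold on the other 2.

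Kif20a, Kif20b, Kif23 and Kif14 act in cytokinesis. Kif20a, which brings the chromosomal passenger complex to the spindle midzone, had 1669, 1636 and 1579.99 with vehicle and 366, 399 and 438 with PD0332991. Its log2 fold change of -1.98 (95% interval -2.15 to -1.81) was the largest fall among the kinesins. Kif23, the motor subunit of centralspindlin, had 1936, 1956 and 2015 with vehicle and 668, 716 and 822 with PD0332991, a 2.65-fold fall. Kif20b, which acts in the completion of cytokinesis, went from 1022 ± 11.9 to 348.9 ± 17.9 (SD, n = 3 each), a 2.85-fold fall. Kif14, which localizes citron kinase to the midbody, had 18.5, 21.1 and 11.2 with vehicle and 3.84, 25.6 and 11.6 with PD0332991. These are low values that overlap, and the 95% interval of its log2 fold change of -0.20, from -0.90 to 0.50, includes a fall and a rise (limma adjusted p = 0.681).

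**Figure D3:**
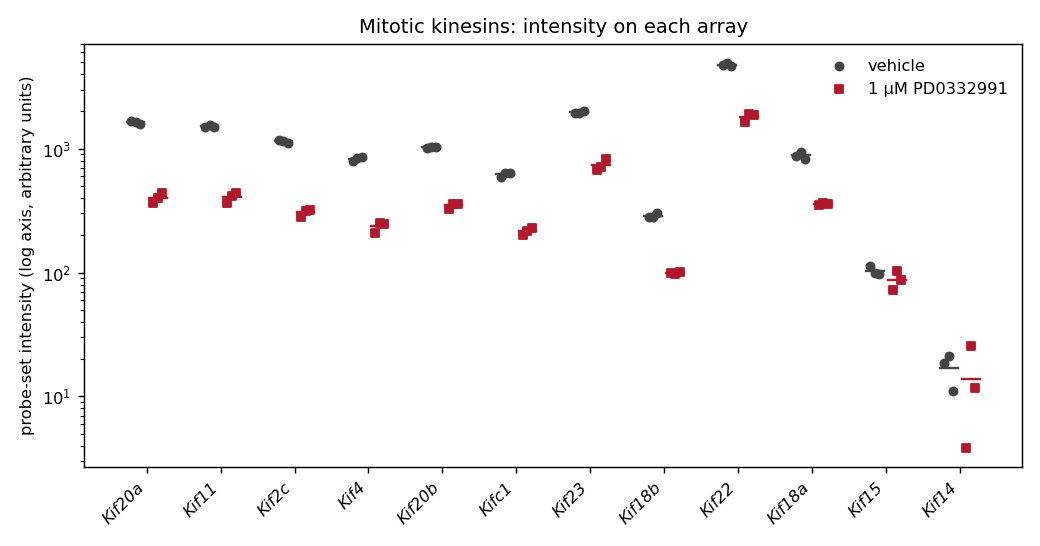
Probe-set intensity of the 12 mitotic kinesins on each array, on a log axis, ordered by log2 fold change; circles are the 3 vehicle arrays, squares the 3 PD0332991 arrays and bars the group means. Vehicle and PD0332991 values are apart for 10 genes and overlap for Kif15 and Kif14.

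In the 10 called mitotic genes the SE of the log2 fold change was 0.04 to 0.08 and the limma adjusted p 4.50e-05 to 0.000198. Groups without overlap and lower with PD0332991 were found in 10 of the 12 mitotic genes and in 19.6% of all genes. Without the probe sets whose names mark possible matches to several transcripts, Kif20a and Kifc1 had no probe set left and the other 8 were still called.

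Of the 25 probe sets of mitotic kinesins 21 were called lower and none higher, against 8.19% called lower and 6.0% called higher among all 45037 probe sets tested one by one. The 4 that were not called were the single probe sets of Kif14 and Kif15, a dim one of Kif18a and 1 of the 4 probe sets of Kif2c. That Kif2c probe set had 135, 142 and 142 with vehicle and 132, 137 and 134 with PD0332991, a log2 fold change of -0.05 with a 95% interval of -0.16 to 0.05, where the other 3 had -1.85, -1.60 and -0.71. It thus differed from the others of its gene, and what transcript it detects was not tested. For Kif11 the 3 probe sets had log2 fold changes of -1.87, -1.76 and -1.10, and for Kif20b the 4 had -1.51, -1.59, -1.44 and -1.01. In both genes the dimmest probe set, at 146.4 and 42.7 with vehicle, had the smallest change on the log2(intensity + 16) scale.

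**Figure D4:**
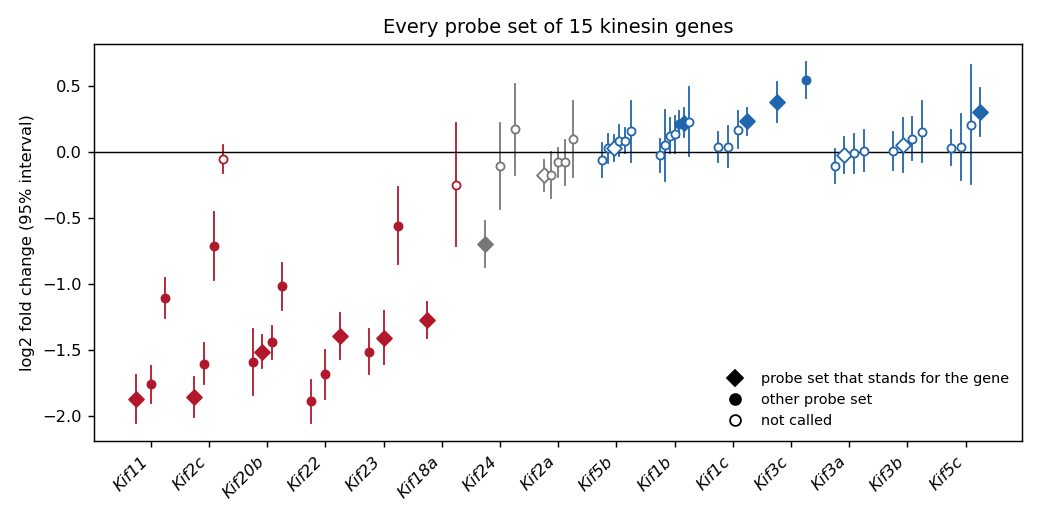
Log2 fold change of every probe set of 15 kinesin genes, with 95% intervals from the probe-set fit as lines, coloured by class as above; diamonds mark the probe set that stands for the gene and open symbols those not called. The Kif2c probe set at -0.05 stands apart from the other 3 of its gene, and both probe sets of Kif3c lie above 0.

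Several kinesin families hold both mitotic and other members. In the kinesin-13 family of depolymerases, Kif2c was 3.62-fold lower and Kif24, which trims centriolar microtubules and restrains cilium formation, 1.62-fold lower. Kif24 had 246, 259 and 260.4 with vehicle and 143, 168 and 144 with PD0332991, without overlap (log2 fold change -0.70, SE 0.07, limma adjusted p = 0.00170). Its other 2 probe sets, both dim, had 0.17 and -0.11, and its call ended when probe sets were averaged (-0.21). Kif2a, which acts at spindle poles and in neurons, had 816, 821 and 848 with vehicle and 701, 759.8 and 736 with PD0332991, a 1.13-fold fall (limma adjusted p = 0.0396). That call was lost when any 1 of the 6 arrays was left out, when arrays were scaled by quantiles, by their median or by spike-ins, and when probe sets were tested one by one. The signal of Kif2b was low, at 9.95 ± 8.18 with vehicle and 7.92 ± 2.53 with PD0332991 (SD, n = 3 each).

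Kif2c relative to Kif2a was lower on every PD0332991 array than on any vehicle array. The log2 value of Kif2c minus that of Kif2a was 0.53, 0.48 and 0.38 with vehicle and -1.26, -1.23 and -1.16 with PD0332991. The exact two-sided permutation test gave p = 0.1, the smallest that 3 arrays against 3 allow, and 0.1 after adjustment over the 4 pairs of kinesins compared, which were chosen after their values were seen. In the kinesin-4 family Kif4 fell, while Kif21a, a regulator of microtubule growth, had a log2 fold change of 0.12 (95% interval 0.04 to 0.21, limma adjusted p = 0.0616), and was called higher under 5 of the 21 alternatives. Kif7, of hedgehog signalling at the cilium tip, had 0.05 (95% interval -0.07 to 0.16). In the kinesin-14 family Kifc1 fell, and Kifc3, which acts at cell junctions and the Golgi, had 0.06 (95% interval -0.04 to 0.16). For Kif21a, Kif7 and Kifc3 alike, these intervals exclude falls of the size of their mitotic relatives.

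Among transport motors, the conventional heavy chain Kif5b of kinesin-1 had 3605, 3633 and 3656 with vehicle and 3622, 3737 and 3782 with PD0332991. The values overlapped, and its log2 fold change of 0.03 had a 95% interval of -0.05 to 0.12. None of its 6 probe sets was called, with log2 fold changes from -0.06 to 0.16. Kif5c, a kinesin-1 heavy chain best known from neurons, had 24.5, 28.2 and 24.8 with vehicle and 32.4, 40.5 and 34.3 with PD0332991 (log2 fold change 0.31, SE 0.07, limma adjusted p = 0.0340). The groups did not overlap, but the signal was low and the call was lost when any of 5 arrays was left out, all but PD0332991 replicate 1. Of its 4 probe sets only this 1 was called, and the others had log2 fold changes of 0.04, 0.21 and 0.04. With its probe sets averaged the value was 0.15 and the call was lost. Kif5a, another neuronal heavy chain, overlapped between groups at 49.9 ± 10.3 and 43.4 ± 8.22 (SD, n = 3 each).

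The light chains of kinesin-1 bind its cargo. Klc3 had 1001, 1087 and 1064 with vehicle and 1214, 1212 and 1272 with PD0332991, a 1.17-fold rise without overlap (limma adjusted p = 0.0212). This call was also lost when any of 5 arrays was left out, all but vehicle replicate 2. Klc1 and Klc4 had log2 fold changes of -0.13 (95% interval -0.27 to 0.01) and 0.16 (95% interval -0.01 to 0.33) and were not called.

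Kinesin-2 is a heterotrimer in which Kif3a pairs with Kif3b or Kif3c, and it drives transport in cilia and of organelles. Kif3c had 659, 647 and 695 with vehicle and 833, 857 and 939 with PD0332991, a 1.31-fold rise without overlap (log2 fold change 0.38, SE 0.06, limma adjusted p = 0.00816). Its second probe set rose 1.46-fold, from 112.0 ± 5.18 to 171.2 ± 8.04 (SD, n = 3 each), and the gene's call was kept when each array was left out in turn. Kif3a and Kif3b had -0.02 (95% interval -0.15 to 0.10) and 0.06 (95% interval -0.14 to 0.25), with none of their 4 probe sets each called. Within arrays, Kif3c relative to Kif3a was higher by 0.41 on the log2 scale with PD0332991 and relative to Kif3b by 0.33, without overlap of the groups in either case (exact two-sided permutation p = 0.1 for each, the smallest possible). For Kif5c relative to Kif5b the change was 0.27, with the same p from the same exact test, on the only Kif5c probe set that was called. Because these pairs, too, were chosen after their values were seen, their separation is no separate support. Kif17, a homodimeric motor of this family, had 0.05 (95% interval -0.11 to 0.21).

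Kinesin-3 motors carry vesicles, synaptic precursors and mitochondria. Kif1c, a vesicle motor found in many tissues, had 1677, 1729 and 1677 with vehicle and 2031, 1962 and 1993 with PD0332991, a 1.18-fold rise (limma adjusted p = 0.00774). One of its 4 probe sets was called, and the other 3 had log2 fold changes of 0.04, 0.04 and 0.17. Kif1b, whose splice forms carry mitochondria or synaptic vesicles, had 497, 463 and 482 with vehicle and 565, 555 and 572 with PD0332991, a 1.17-fold rise (limma adjusted p = 0.0136). Of its 7 probe sets 2 were called higher, with 0.22 and 0.21, and the other 5 ranged from -0.02 to 0.23. The calls of Kif1b and Kif1c ended when the probe sets of a gene were averaged, with log2 fold changes of 0.14 and 0.12. Kif13b and Kif13a, vesicle motors of the same family, and the endosomal motor Kif16b had -0.15, -0.06 and -0.05. Of these, Kif13b had an interval that excluded 0 (-0.25 to -0.04, limma adjusted p = 0.0668).

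The calls of the transport motors and light chains that rose depended on how arrays were scaled. Centring arrays on the 9 hybridization spike-in probe sets moved the median log2 fold change of all genes to -0.12, and to -0.04 when vehicle replicate 1, which had the lowest spike-in signal, was also left out. In both cases none of the 20 transport motor and light chain genes was called higher or lower by limma. At an unadjusted p under 0.05, 0 were higher and 2 lower with all arrays, and 4 higher and 1 lower without that array. The median log2 fold change of the 20 genes was -0.074 with all arrays and -0.011 without vehicle replicate 1. All 5 values stayed above 0 in both cases. These genes were picked as called higher, and centring shifts all genes of an array alike, so their sign is no separate support. With all arrays the log2 fold changes were 0.26 for Kif3c, 0.18 for Kif5c, 0.11 for Kif1c, 0.10 for Kif1b and 0.10 for Klc3. Without vehicle replicate 1 they were 0.33, 0.24, 0.18, 0.20 and 0.15 in the same order. All 10 mitotic calls held in both cases. The count of 0 transport genes called lower in the main comparison corresponded to 1 at an unadjusted p under 0.05, which was Kif13b, and to 2, Kif13b and Klc1, with trend and robust moderation in limma.

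Of the 11 other kinesins 2, Kif24 and Kif2a, were called lower and 0 higher by limma, beside 11.2% and 9.81% of all genes. The remaining 9 are those not called, and none of them had an unadjusted limma p under 0.05. Kif26b, an atypical kinesin without motor activity, had the largest value of these at a log2 fold change of 0.41, with a 95% interval of -0.10 to 0.91. Kif26a was listed at 1.00 on all 6 arrays, the lowest value there, and Kif6, Kif9, Kif12, Kif27 and Kif28, among them motors of motile cilia, had group means of 3.19 to 48.7. Values this low carry little information on a change.

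Partners of the kinesins, from lists that were chosen with earlier results of these data known, are given by their counts. Of 24 measured partners and regulators of mitotic kinesins 21 fell and 1 rose, beside 11.2% and 9.81% of all genes. The median log2 fold change was -1.57. This list also holds the kinesins Cenpe and Kifc5b, which are both among the 21. The mitotic kinesin Cenpe, which carries chromosomes to the metaphase plate and whose symbol keeps it outside the family rule used here, fell 3.51-fold, from 2008 ± 116 to 559.9 ± 23.9 (SD, n = 3 each). Nusap1, which bundles spindle microtubules, had a log2 fold change of -1.85, and Mapre2, of the microtubule end-binding proteins, rose by 0.23. Of 22 adaptors and partners of transport kinesins 7 rose and 1 fell, with a median of 0.03, beside 9.81% and 11.2% of all genes. Fez2, an adaptor of kinesin-1, rose 1.40-fold and Rab11fip5, of recycling endosomes, 1.28-fold. Kifap3, the third subunit of kinesin-2, had 0.02 (limma adjusted p = 0.787).

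For cytoplasmic dynein, the opposite-directed motor, and its cofactors, 3 of 25 genes rose and 3 fell, with a median of 0.02, beside 9.81% and 11.2% of all genes. The 2 with the smallest p, Spdl1, which recruits dynein to kinetochores, and Nde1, a dynein regulator in mitosis, fell with log2 fold changes of -1.11 and -0.71. The heavy chain Dync1h1 had 0.01. Of 13 tubulin genes 3 rose and 4 fell, beside the same shares of all genes, with a median of -0.09, and Tubb6, a beta tubulin, and Tubg1, which nucleates microtubules, had -0.88 and -0.52.

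Over all genes 1785 were called higher and 2035 lower; median centring gave 2138 and 1618, quantile scaling 2294 and 1781, and spike-in centring 240 and 1475. The median intensity of the arrays was 69.6 to 72.7. The spike-in mean (log2) was 9.74 for vehicle replicate 1 and 9.94 to 10.05 for the other 5 arrays. Ratios of 3′ to 5′ signal, a sign of RNA integrity, were 0.927 to 0.990 with vehicle and 0.980 to 1.01 with PD0332991 for Gapdh, and 1.31 to 1.40 and 1.34 to 1.39 for beta-actin. Of the 8 epithelial markers 7, among them Krt8, Krt18, Cdh1 and Epcam, were above the median of all genes, and Krt19 was at 1.00 to 2.27. Summed epithelial markers were 52695 to 54088 with vehicle and 55805 to 57467 with PD0332991. Of the 8, 2 were called higher, Krt7 and Cldn4, beside 9.81% of all genes. The sums of 8 leukocyte markers were 2119 to 2163 and 2336 to 2459.7, mostly from Cd14, with Cd3e and Cd79a between 1.00 and 10.3. Of these 8, 3 were called higher, beside 9.81% of all genes. The 5 fibroblast markers summed to 323 to 368 and 284 to 301 and the 5 endothelial markers to 124 to 138 and 129 to 142. In each of these lists 1 was called lower, beside 11.2% of all genes. The 6 neuronal markers, mostly Map2, summed to 2561 to 2667 and 2353 to 2512, with none called. The part of these shifts in the kinesin values was not tested.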

How the data were processed

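Per the labels' protocols, total RNA was purified with Trizol and columns and labelled with biotin. The authors deposited 1 linear intensity per probe set and array; how probes were summarised and scaled is not given in the sources used here. All 64 control probe sets were left out. The platform annotation gave 34945 of the other 45037 probe sets exactly 1 gene symbol, naming 18193 genes, and the 43 kinesin symbols all matched RefSeq genes of GRCm38.p6 by gene number.

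A gene was represented by its probe set with the highest mean log2 value. Of the 43 kinesin genes 28 have several probe sets. Values were log2(intensity + 16), on which scale fold changes are given and which understates changes of dim genes. PD0332991 (n = 3) was compared with vehicle (n = 3) with limma 3.58.1 (lmFit, then eBayes; R 4.3.3). Tests were two-sided and p-values were adjusted by Benjamini-Hochberg over all genes, with 0.05 as threshold. No filter was applied in the main fit. A filter at the median of all genes, on the higher of a gene's group means, would pass 28 of 43 kinesins (10 of 12 mitotic). A gene can pass it through a single group, as Kif18b does through vehicle. A second fit tested each probe set. The fit was also run on simulated data, made of independent noise for each gene and array with added falls. That noise held no shifts of whole arrays, so the run does not bear on how arrays were scaled.

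No replicate block was used. Named were all mitotic kinesins, other kinesins that were called, the 3 brightest uncalled ones and the 2 members of each partner list with the smallest p; Kif21a, Kif7, Kif26b and the uncalled motors with values, and Kifap3, Kifc5b, Mapre2 and Dync1h1, were added after their values were seen. The kinesins, classes, partner lists and alternatives were chosen with earlier results of these data known. The number of arrays limits the precision. Tables were made in Python 3.11.15 with pandas 2.3.3 and plots with matplotlib 3.10.9.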

Additional observations from a re-analysis of the deposited data

How the results depend on the processing

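The count of 10 mitotic kinesins called lower held under all 21 alternatives except that 8 could be measured and called without probe sets of possible multiple matches. Over these genes and alternatives, 208 of 208 single-gene values kept direction and call, with log2 fold changes from -2.11 to -0.76. Kif18b passed the filter on dim genes only through its vehicle values, so its result there is no separate support. The median over the mitotic kinesins moved from -1.44 to -1.56 with spike-in centring and -1.53 with a pseudocount of 1, and was -1.50 to -1.41 with 1 array left out. The 5 transport motors and light chains called higher became 2 with the replicate number as a block, 0 with spike-in centring (also 0 when vehicle replicate 1 was dropped too, an alternative added once the data had been seen), 2 with the mean and 2 with the median of probe sets, 2 at an adjusted p of 0.01 and 0 with a 2-fold minimum. It became 6 with quantile normalization, median centring, a pseudocount of 64 or a filter on dim genes, where Kif21a was also called higher. The filter also added Klc4 and left Kif5c untested. With trend and robust moderation the count stayed at 5, as Kif21a was gained and Kif5c was lost. Leaving out 1 array gave 3 to 4, with 3 each without vehicle replicates 1 and 3 and PD0332991 replicates 2 and 3. The count called lower, 0, became 1 (Kif13b) with a pseudocount of 64 and with a filter on dim genes, and 2 (Kif13b and Klc1) with trend and robust moderation. Their median of 0.05 was 0.089 with quantile normalization, 0.082 with median centring, -0.074 with spike-in centring, -0.011 with that centring minus vehicle replicate 1, and 0.034 to 0.084 with 1 array left out. All calls, 3820, numbered 2047 with the replicate block, 1715 with spike-in centring (1571 without vehicle replicate 1), 1703 at an adjusted p of 0.01, 238 with a 2-fold minimum and 2497 to 2683 with 1 array left out. Deviations of samples that share a replicate number had correlations of 0.0076, -0.051 and 0.050. For 1 of the 3 numbers the samples matched each other best. With 3 numbers this check cannot settle whether the numbers pair samples. The numbers were not taken as pairs because the labels do not say that they pair samples. Kif24 turned to 0.17 with the median of its probe sets. Where fewer genes or samples were used the count can fall for that reason; otherwise the cause was not tested.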

Other observations

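The promoter element of the mitotic kinesins was also counted over the array. Of 188 promoter windows of genes called and at least 2-fold lower, which include the 9 such kinesins with an entry, 39.9% held TTTGAA on either strand and 59.6% CCAAT. Of 14103 windows of genes that were not called the shares were 13.1% and 36.6%. The E2F-type motifs TTCCCGCC, TTTCCCGC or TTTGGCGC were present in 19.1% and 3.98%. These shares describe letters in fixed windows, and no test was made of them. Kif15, with TTTGAA at 19 bases before its start and an E2F-type motif at 27 bases before it, was not called on its single probe set. Its group means there, 102.7 with vehicle and 87.7 with PD0332991, were below the median of all genes. Kif14, whose window holds TTTGAA and CCAAT, was not called either, at still lower values.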
